A study of Drosophila melanogaster with 3 samples.

Results

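The regions described here are weak Elba2-eGFP pull-down regions inside protein-coding exons that did not enter the authors' optimal peak set, and they number 3010 of the 28496 regions in the authors' pooled dm6 list of peaks and background. They were chosen by 3 conditions. The summit of the region lay over 1000 bp from every summit of the 3276 optimal peaks, which the authors had kept by irreproducible discovery rate (IDR), a measure of how well replicates rank the same peaks. It lay over 500 bp from every annotated transcription start site (TSS), and it fell in annotated coding sequence (CDS). The first condition alone left 23209 weak regions, of which these coding ones are 13.0% (exact 95% interval 12.5 to 13.4).

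Elba2 is a BEN-domain protein and a subunit of ELBA, a complex of the early Drosophila embryo that was found through an insulator boundary of the bithorax complex. ELBA binds an asymmetric DNA site, and the related BEN-domain protein Insensitive binds a palindrome that shares its first bases. Coding exons are richer in GC than introns in flies. A permissive peak list is made to hold background as well as binding sites, so a weak region is not by itself a binding site.

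The libraries came from whole Drosophila melanogaster embryos of mixed sex, aged 0 to 4 h, of strain CG9883-GFP. This is a transgenic line that stably expresses Elba2 with a C-terminal eGFP tag, and an antibody to GFP pulled down the sonicated chromatin. The 3 samples are biological replicates of this 1 group. All of them carry the tagged protein, no untagged or input sample is among them, and the control library used in peak calling was not analysed here. Replicates 1, 2 and 3 have lists of 29295, 30000 and 30000 regions. The lists carry no read numbers, and so the sequencing depth is unknown. Intervals below are exact binomial ones that cover counting error only and treat regions as independent, which neighbouring regions are not. With 3 replicates, the exact sign-flip permutation test used below cannot go under a two-sided p of 0.25.

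Short sequences around a few summits show what these regions are made of. Each is the 201 bases centred on the summit, from the Release 6 genome (dm6), written 5′ to 3′ on the coding strand. The exons at CG3323 (chrX:5305047-5305247, minus strand) and Ino80 (chr3R:19401420-19401620, minus strand) are shown because they carry, in capitals, the ELBA site CCAATAAG and the palindrome CCAATTGG. That of Sec13 (chr3R:23357927-23358127, plus strand) has a run of the CAG repeat in capitals. The remaining 3 have none of these words, and the capital marks the summit base. They are the strongest region, in salt (chr3R:31752072-31752272, minus strand), the region of lowest GC content, in CG34027 (chr3R:25107482-25107682, minus strand), and that of highest GC content, in yps (chr3L:12122977-12123177, minus strand).
CG3323: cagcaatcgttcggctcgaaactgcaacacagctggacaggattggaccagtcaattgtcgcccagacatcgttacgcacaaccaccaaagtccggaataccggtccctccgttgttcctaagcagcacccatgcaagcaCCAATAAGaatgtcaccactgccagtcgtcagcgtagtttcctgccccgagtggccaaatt
Ino80: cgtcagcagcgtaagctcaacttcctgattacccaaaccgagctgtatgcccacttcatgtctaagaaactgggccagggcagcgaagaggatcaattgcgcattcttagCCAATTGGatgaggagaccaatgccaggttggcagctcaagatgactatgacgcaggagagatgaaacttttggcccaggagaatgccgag
Sec13: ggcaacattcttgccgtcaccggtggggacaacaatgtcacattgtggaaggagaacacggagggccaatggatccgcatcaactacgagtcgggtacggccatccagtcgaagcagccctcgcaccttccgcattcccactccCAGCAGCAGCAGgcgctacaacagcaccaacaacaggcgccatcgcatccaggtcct
salt: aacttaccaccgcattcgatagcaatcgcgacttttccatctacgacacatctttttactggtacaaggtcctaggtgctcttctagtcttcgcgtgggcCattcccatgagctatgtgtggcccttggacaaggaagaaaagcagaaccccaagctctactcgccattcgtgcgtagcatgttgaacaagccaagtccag
CG34027: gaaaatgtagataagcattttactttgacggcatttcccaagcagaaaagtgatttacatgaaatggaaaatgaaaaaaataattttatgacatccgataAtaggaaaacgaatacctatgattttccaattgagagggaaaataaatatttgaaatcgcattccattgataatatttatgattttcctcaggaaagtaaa
yps: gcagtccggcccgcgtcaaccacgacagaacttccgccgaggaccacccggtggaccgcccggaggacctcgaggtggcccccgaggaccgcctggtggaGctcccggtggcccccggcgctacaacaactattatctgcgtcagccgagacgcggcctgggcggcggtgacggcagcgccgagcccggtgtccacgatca

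All 3010 regions were 424 bp wide. The authors' signal value, whose scale is not given in the sources used here, ran from 35.9 to 108 with a median of 44.8. This value is part of how the set was selected and is given as a description. The median of all 23209 weak regions was 47.0, and the lowest optimal peak had 109. The coding label held for most of each region: the median region was 86.3% coding, 1103 regions (36.6%) lay wholly in coding sequence, and 171 summits also lay in an annotated UTR of some transcript. Just inside the TSS limit, 172 coding summits lay over 500 and up to 600 bp from a TSS with a median signal of 46.6. Just outside it, 190 lay over 400 and up to 500 bp away with a median of 46.0. Just inside the limit on optimal peaks, 117 summits lay over 1000 and up to 1200 bp from an optimal summit (median signal 45.8), and 119 lay just outside it, over 800 and up to 1000 bp away (47.6). The optimal peaks held 124 coding summits over 500 bp from a TSS, with signal from 109 to 612.

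The 10 strongest regions were found in each replicate list. The one in salt had a signal of 108, lay 1372 bp from a TSS and ranked 4490, 3353 and 3849 in replicates 1, 2 and 3. The region in Serinc, which codes for a serine incorporator membrane protein, had a signal of 107 and ranks of 4167, 5119 and 3023. The region in Sec13, a subunit of the COPII vesicle coat and of the nuclear pore, had 105 and ranks of 4261, 3305 and 3541. These 3 ranked between 3023 and 5119 in each list. The region in DIP2, a disco-interacting protein, had 108 and ranked 4660, 1810 and 12062. The region in superdeath had 103 and ranked 27906, 1758 and 2671, so its place rested on replicates 2 and 3. The others lay in Ir51b, an ionotropic receptor gene, CG11248, Uxs, the UDP-xylose synthase, alpha-Est1, a carboxylesterase, and bchs, a BEACH-domain protein of autophagy. None of the 10 had the ELBA site or the palindrome within 100 bp of the summit. In the strongest quintile of the coding regions 9.47% had either word, so 10 regions are too few to tell their share from this.

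How much of the weak signal lay in coding exons differed between the replicates. The coding share of weak regions was 9.92% in replicate 1, 14.3% in replicate 2 and 19.1% in replicate 3 (14.4% ± 4.59, SD, n = 3). Per Mb of coding sequence that met the distance limits, the lists held 134, 199 and 264 regions (199 ± 65.0), and the pooled list held 170. Introns held 181, 181 and 164 per Mb (175 ± 9.75; pooled 166), so their spread was smaller. The coding density was 0.740, 1.10 and 1.61 times the intronic one, a mean log2 ratio of 0.13 ± 0.56 (SD, n = 3, two-sided exact sign-flip permutation p = 0.75). The replicates thus went both ways. Against intergenic sequence the ratio was 1.03, 1.49 and 2.16, above 1 in 3 of 3 lists (p = 0.25, exact sign-flip permutation, the smallest it can give). Against promoters, within 500 bp of a TSS, it was 0.389, 0.617 and 0.802, below 1 in 3 of 3 lists (exact p = 0.25). The GC content of the whole lists moved in the same order as the coding share. Its median was 40.3%, 41.8% and 44.8% in replicates 1, 2 and 3, and its part in the coding share was not tested.

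**Figure D1:**
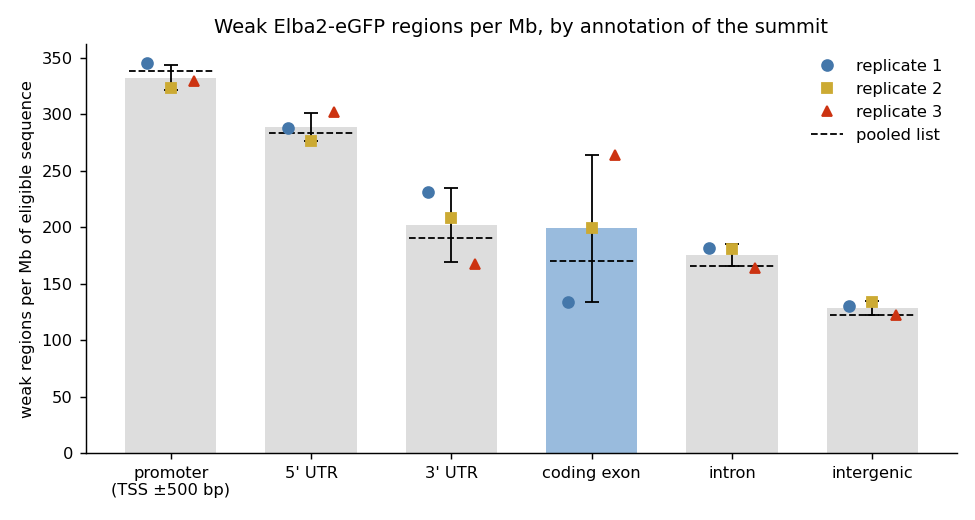
Weak regions per Mb of eligible sequence (vertical axis) for each annotation class of the summit (horizontal axis). Bars are means over the 3 replicate lists, error bars are the SD, points are replicates and dashed lines the pooled list. Coding exons range from 134 to 264 per Mb, while introns range from 164 to 181.

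In the pooled list the median GC content of the coding regions matched that of eligible coding sequence as a whole. Over the 201 bases centred on the summit, the regions had a median of 52.2% (quartiles 47.3% and 56.7%, range 28.4% to 71.6%). The 88335 windows of the same length that tile the eligible coding sequence had a median of 52.2% and the same quartiles. In replicates 1, 2 and 3 the median of the coding regions was 51.2%, 52.2% and 53.2%. The difference from the windows was -0.995, 0 and 0.995 percentage points (mean 0 ± 0.995, exact sign-flip permutation p = 1). Weak intronic regions had 39.8%, 40.8% and 43.3%. The coding regions were thus 10.9 ± 0.862 percentage points richer in GC (SD, n = 3, in 3 of 3 lists, exact sign-flip permutation p = 0.25), a difference that the choice of coding sequence enters. The 124 optimal peaks in coding exons had a median of 47.3%.

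Within coding sequence the lists leaned in opposite directions along GC content. Replicate 1 held 36.9 regions per 1000 windows with under 40% GC and 24.2 per 1000 windows with 60% or more. Replicate 3 held 29.2 and 56.4, and replicate 2 held 35.4 and 43.4. The ratio of the GC-richest to the GC-poorest bin was 0.655, 1.23 and 1.93 in the 3 lists. In the pooled list the density stayed between 30.5 and 37.6 per 1000 windows over the 6 bins, without a trend along them. The difference between replicates 1 and 3 lay mainly above 45% GC, since below 40% replicate 1 had the higher density.

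**Figure D2:**
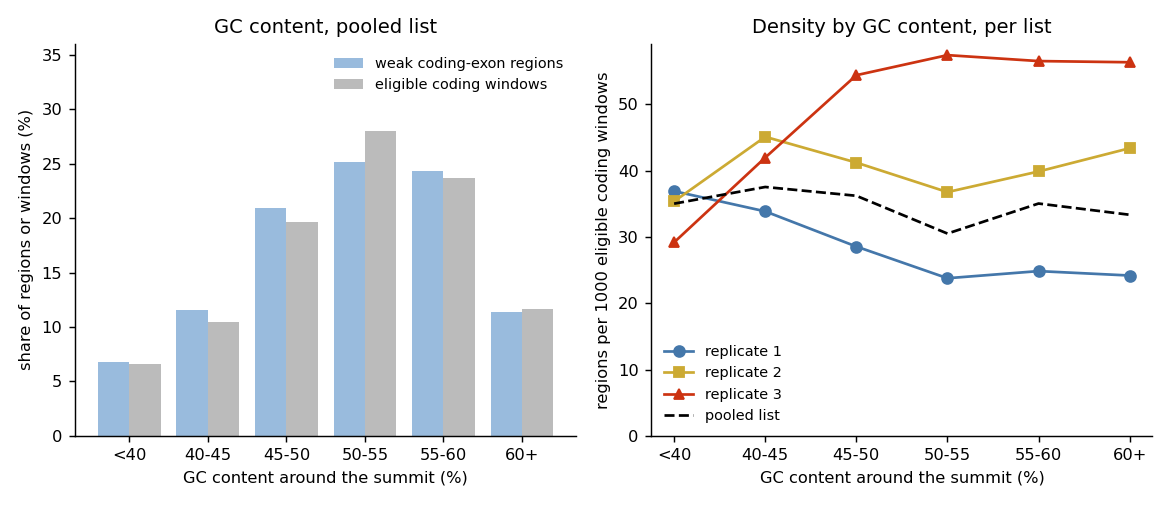
Left, share of pooled weak coding-exon regions and of eligible coding windows (vertical axis, %) by GC content around the summit (horizontal axis, %). Right, regions per 1000 windows in the same GC bins for each replicate list and the pooled list. The 2 distributions overlap on the left, and on the right replicate 1 falls from 36.9 to 24.2 while replicate 3 rises from 29.2 to 56.4.

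The CAG repeat, which codes for glutamine tracts in many fly regulators, was about as common in the regions as in coding sequence at large. With words searched up to 100 bp from the summit and on either strand, CAGCAGCAG was in 174 of 3010 regions (5.78%, 4.97 to 6.67) and in 5.12% of windows. The replicate lists had 5.21%, 5.24% and 6.28% (5.58% ± 0.606), so the windows' share lay within 1 SD of their mean. GGCGGCGGC was in 1.86% of regions and 1.73% of windows. CACACACA was in 0.565% and 0.574%, and GAGAGAGA, bound by GAGA factor, in 0.399% and 0.320%. The replicate lists had GGCGGCGGC in 1.97%, 1.87% and 2.03%, and CACACACA in 0.840%, 0.765% and 0.619%. They had GAGAGAGA in 0.546%, 0.482% and 0.448%. Each of these shares was above that of the windows. Weak intronic regions differed from the coding ones in these repeats: 6.60% held CACACACA, 2.08% held GAGAGAGA and 1.67% held CAGCAGCAG. CAGGTAG, the site of the early activator Zelda, was in 2.13% of coding regions (1.64 to 2.71) and 1.88% of windows. In the replicate lists it was in 2.44%, 2.24% and 2.52% (2.40% ± 0.144, SD, n = 3), above the windows in each. The promoter words GGTCACAC of M1BP (0.233% against 0.348% of windows) and TATCGATA of DREF (0.199% against 0.170%) were rare in both.

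The words bound by ELBA and Insensitive were more frequent in the coding regions than in coding sequence at large. CCAATAAG was in 59 regions (1.96%, 1.50 to 2.52) and in 0.444% of windows. CCAATTGG was in 61 regions (2.03%, 1.55 to 2.60) and in 0.495% of windows. Either word was in 119 regions (3.95%, 3.29 to 4.71) of 116 genes, 4.22 times the windows' 0.937%. In the replicate lists the share with either word was 4.16%, 2.86% and 2.99% (3.34% ± 0.715, SD, n = 3), or 4.44, 3.05 and 3.19 times the windows. It was above the windows in 3 of 3 lists (exact sign-flip permutation p = 0.25). Stretches of the same length 500 bp to either side of the summits had 0.880%, near the level of the windows. These stretches were not limited to coding sequence, and 2.06% of them held CACACACA against 0.574% of windows. The ELBA site spelled backwards, GAATAACC, which keeps the base composition, was in 0.332% of regions and 0.324% of windows. Weak intronic regions had either word in 4.12% (3.69 to 4.58) and weak promoter regions in 2.66% (2.29 to 3.07). The optimal peaks in coding exons had it in 37.9% (29.3 to 47.1), far above the weak coding regions.

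The share with either word rose with the authors' signal. Ordered by pooled signal, the strongest quintile of the coding regions (signal 55.6 to 108) had it in 9.47% (7.25 to 12.1), and the next quintile in 4.65% (3.11 to 6.65). The 3 weaker quintiles had 2.16%, 1.50% and 1.99%. The interval of the second weakest, 0.686 to 2.82, took in the windows' 0.937%. Regions with a summit in all 3 replicate lists had either word in 8.30% (6.12 to 11.0), those in 2 lists in 3.95%, those in 1 list in 1.90% and those in none in 2.06%. Signal and replicate support go together, so these are not separate observations. The regions were above the windows in each class of GC content. In the 4 classes under 45%, 45% to 50%, 50% to 55% and over 55% GC, regions had either word in 4.36%, 6.04%, 4.37% and 2.23%. Windows of the same classes had 1.06%, 1.15%, 0.912% and 0.780%.

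The share of regions with a word was highest in the bins at the summit and stayed above that of the windows up to 200 bp on both sides. In bins of 50 bp, the share of regions with either word was 1.13% and 1.16% in the bins that touch the summit and 0.166% in the outermost bin on the side of lower coordinates. From 100 to 200 bp away it was still 0.631% to 0.698% on both sides, where windows had 0.215% to 0.328%. From 200 to 250 bp away it was 0.698% on the side of lower coordinates and 0.233% on the other. The window shares in these bins come from 8834 windows and not from all 88335. The median distance to the summit was 44.5 bp for the 59 copies of the ELBA site within 100 bp and 36.5 bp for the 61 copies of the palindrome. Over steps of 25 bp from the summit, the copies of the ELBA site numbered 16, 14, 18 and 11, without a steady fall, and those of the palindrome 23, 16, 11 and 11. In the optimal peaks of coding exons the median distances were shorter, 18.5 and 19.5 bp. Of the optimal copies of the ELBA site, 63.0% lay within 25 bp, and of those in weak coding regions 27.1%. Of all 2080 words of 6 bases counted with their reverse complements, CAATAA had the largest excess over the windows, in 12.6% of regions against 8.48%. AATAAG followed with 9.93% against 5.98%, then AATTGG with 13.2% against 10.3% and CCAATA with 10.4% against 7.67%. All 4 are parts of the ELBA site or the palindrome. The words that came next, CTGCAA (18.3% against 15.8%) and CCACAG (15.8% against 13.4%), are parts of neither.

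**Figure D3:**
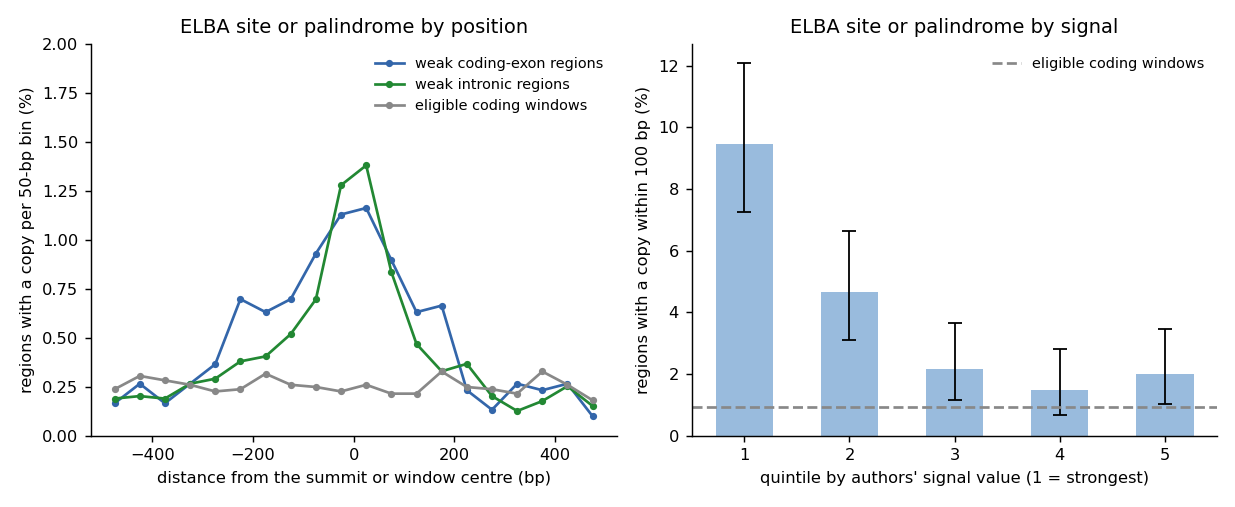
Left, share of regions with the ELBA site or the palindrome (vertical axis, %) in 50-bp bins by distance from the summit or window centre (horizontal axis, bp). The window line on the left is from 8834 windows. Right, share with a copy within 100 bp (vertical axis, %) in quintiles of the coding regions by the authors' signal (horizontal axis), with exact 95% intervals and the windows' 0.937% as a dashed line. The share peaks at the summit on the left and falls from 9.47% to 1.99% on the right.

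The strongest coding regions with either word lay in genes of varied function. CG42360 held the ELBA site in a region at chr2R:24609582-24610005 with a signal of 103 and ranks of 3386, 2842 and 8166 in the replicates. Ino80, the ATPase of a chromatin remodeller, held the palindrome in a region at chr3R:19401308-19401731 with a signal of 103 and ranks of 4459, 18439 and 1700. CG3323 held the ELBA site at chrX:5304935-5305358 with a signal of 101 and ranks of 15676, 5386 and 2019. All 3 were found in each list, but their ranks differed widely among the lists. Coq8, a kinase-like protein of coenzyme Q synthesis, had a signal of 97.9 and the palindrome. So did apolpp, the precursor of the lipophorin apolipoproteins, on chromosome 4, with a signal of 94.6 and no summit in replicate 3. tomboy40, a subunit of the mitochondrial import channel, had the palindrome and a signal of 93.7. HIPP1, a partner of HP1 and of insulator proteins, had the ELBA site and a signal of 93.3. mei-41, the ATR kinase of the DNA damage checkpoint, had the palindrome and a signal of 91.1. These are the 8 regions of highest signal among those with a word, named after their values were seen.

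The share of coding regions found in all 3 replicate lists was lower than for the weak regions as a whole, and replicate 3 went the other way. A summit of replicate 1, 2 or 3 lay within 200 bp of 52.4%, 61.8% and 62.4% of the 3010 regions, against 67.3%, 63.6% and 56.9% of all weak regions. By number of lists, 542 regions (18.0%, 16.6 to 19.4) were in all 3, 1318 in 2, 1053 in 1 and 97 in none. Among all weak regions 24.0% were in all 3, among weak intronic regions 21.7% and among weak promoter regions 31.2%. The pooled list was made from the same reads, so this support is a description and not an independent check. Replicate 3 alone supported 12.9% of the coding regions and 7.69% of all weak regions. Replicate 1 alone supported 9.07% and 12.03%. Overlapping regions can share 1 replicate summit: 292 regions (9.70%) overlapped another weak coding region.

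Support fell with the authors' signal. The strongest quintile had 60.3% in all 3 lists (56.3 to 64.2), the next 20.6%, then 6.48%, 1.99% and 0.664%. Weak intronic regions between the same signal values had 61.0%, 19.5%, 6.94%, 2.31% and 1.01%, and weak promoter regions 61.1%, 20.1%, 6.47%, 2.84% and 2.41%. At like signal the 3 classes lay within the coding intervals, apart from promoters in the weakest quintile, where the coding interval ended at 1.69%. How often coding regions recurred in another list, compared with intronic ones, depended on the pair. Of the coding regions of replicate 3, 22.6% had a summit of replicate 1 and 27.7% one of replicate 2 within 200 bp, against 37.1% and 35.5% of its intronic regions. Of the coding regions of replicate 1, 38.1% had one of replicate 2 and 42.2% one of replicate 3, against 39.7% and 34.3%. Of those of replicate 2, 26.6% had one of replicate 1 and 35.3% one of replicate 3, against 39.4% and 32.4%. Among regions present in both lists of a pair, the signal ranks were weakly related. Spearman's rho across regions was 0.16 (912 regions, replicates 1 and 2), 0.21 (933, replicates 1 and 3) and 0.12 (1099, replicates 2 and 3). Across all weak regions it was 0.31, 0.28 and 0.20. Regions of a list share its library, so these are descriptions.

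**Figure D4:**
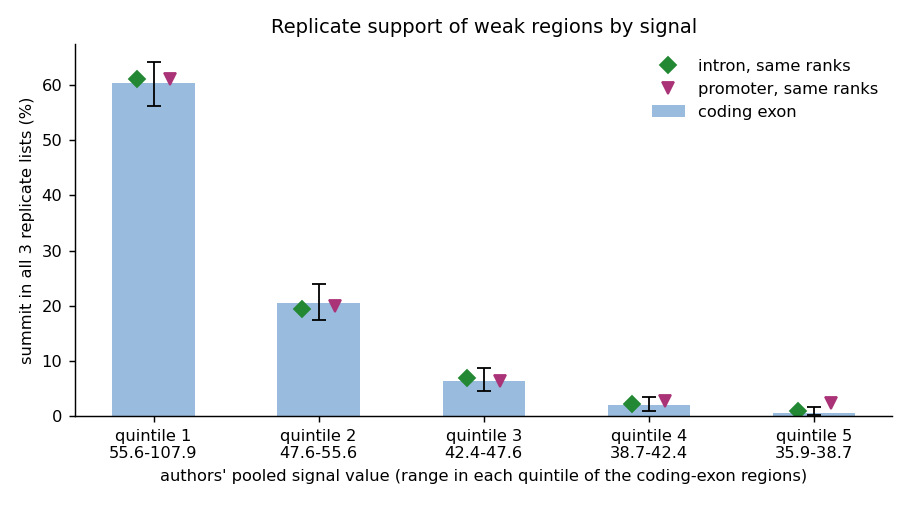
Share of weak regions with a summit within 200 bp in all 3 replicate lists (vertical axis, %) by quintiles of the authors' pooled signal (horizontal axis). Bars are coding-exon regions with exact 95% intervals, and markers are intronic and promoter regions between the same signal values. The share falls from 60.3% to 0.664% in coding exons, and the markers sit at similar heights.

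The coding regions were spread over many genes. Of 12020 protein-coding genes with eligible coding sequence, 2435 (20.3%) had at least 1 region. A single region was found in 1976 genes, 2 in 374, 3 in 62 and 4 in 17. The share of genes with a region rose with the length of eligible coding sequence, from 5.29% of genes with up to 500 bp to 60.4% of genes with over 8000 bp. Per Mb the order was reversed at the long end, with 228 regions in genes of 500 to 1000 bp and 94.9 in genes of over 8000 bp. Length of exon showed the same order. Exons of up to 250 bp had 41.8 regions per 1000 windows and exons of over 4000 bp had 17.1. The first 20% of the coding sequence had 43.1 per 1000 windows, and the rest, in steps of 20%, had 31.2 to 34.8.

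The genes with the most regions had varied roles. The gene with the most, kis, a Trithorax-group chromodomain remodeller, had 8 regions in 15.6 kb of eligible coding sequence on 2L, with signal up to 65.7. Of its 8 regions, 4 were in all 3 lists, and the replicate lists themselves held 9, 4 and 9. Of these 4, the overlapping regions with summits at 235208 and 235407 shared 1 summit of replicate 2 and 1 of replicate 3. Su(var)2-HP2, a protein that binds heterochromatin protein HP1, had 7 regions in 9.53 kb, none of them in all 3 lists, and 1, 4 and 3 in the replicate lists. kug, an atypical cadherin of the Fat family, had 6 regions in 14.1 kb. Its strongest had a signal of 102 and ranked 8644, 3545 and 2934, while its other 5 had 36.9 to 52.9. Vps13D, a lipid transfer protein, lola, a BTB zinc-finger regulator of axon guidance, and mud, the NuMA-like protein of spindle orientation, had 5 regions each. There were 17 genes with 4 regions, and the 9 with the highest signal among them are named here. They were osa, a subunit of the Brahma remodeller, hyd and ctrip, which are ubiquitin ligases, Bruce, an inhibitor of apoptosis, tefu, the ATM kinase, rictor, of the TORC2 kinase complex, Mhcl, a myosin-like protein, CG8155 and CG33978. shn, a zinc-finger factor of Dpp signalling, had 4 as well and is named for its chain of regions.

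Long coding sequence did not by itself bring many regions. dpy, the giant apical matrix protein, had 2 regions in 68.3 kb of eligible coding sequence, and 2, 4 and 5 in the replicate lists. Ank2, a neuronal ankyrin, had 1 in 41.5 kb, and the muscle kinases Strn-Mlck and bt had 1 each in 28.3 and 24.9 kb. The replicate lists held 1, 3 and 2 in Ank2, 1, 3 and 2 in Strn-Mlck, and 0, 4 and 1 in bt. Lkb1, the kinase upstream of AMPK, had 3 in 1.62 kb. The gene lists were chosen with earlier results of these data known, so their counts are descriptions, set beside 170 regions per Mb and 20.3% of all genes. The share of genes with a region rose with coding length, and the lists were not matched to all genes for length.

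Among chromatin genes, the Polycomb and Trithorax group had regions in 21 of 36 genes with eligible sequence, or 271 per Mb. The replicate lists held 216, 236 and 410 per Mb, against 134, 199 and 265 for all genes. Besides kis and osa, Psc, a Polycomb repressor subunit, had 3 regions with signal up to 85.9, and fs(1)h, the BET bromodomain protein, had 3 up to 46.8. Bap60, E(z) and Kdm2 had none in the pooled list, and replicate 3 held 1 in Kdm2. Insulator protein genes had regions in 5 of 17, or 314 per Mb on little sequence. They were mod(mdg4) with 3, dwg and pita with 2 each, and Trl, the GAGA factor gene, with 1. Cp190, which codes for an insulator cofactor and was named after its value was seen, also had 1. In the pooled list CTCF, Chro and BEAF-32, which had only 0.149 kb of eligible sequence, had none. Replicate 3 held 2 regions in CTCF, and replicate 2 held 1 in Chro. Among regulators of development, 15 of 30 genes had regions (182 per Mb), led by lola, grh, the Grainy head epidermal factor, and corto. Segmentation and Hox genes had them in 9 of 42 (173 per Mb), such as oc, tsh, hb and ci. In the pooled list Abd-B, Dfd and Kr had none, though replicates 1 and 3 each held 1 in Kr. For this list the replicates held 142, 362 and 236 per Mb. Elba1, Elba2 and Elba3 had no region in the pooled set, and insv had no eligible coding sequence. Elba2 itself had 1 coding region in each of the 3 replicate lists.

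Genes of structure and adhesion differed by list. Cadherins and other adhesion receptors had regions in 21 of 38 genes (154 per Mb), such as kug, the integrin scb, E-cadherin shg and Ten-m. Lipoprotein receptors had 3 of 6 (133 per Mb), and Notch with other EGF-repeat genes had 5 of 10 (101 per Mb), with 2 regions in crb and 1 in N. Channels had 10 of 29 (89.1 per Mb), with 2 regions in the calcium channel gene cac. Extracellular matrix genes had 11 of 26 (72.9 per Mb). Dyneins, spectrins and large cytoskeletal genes had 9 of 28 (38.3 per Mb), and sarcomere genes had 5 of 30 (21.9 per Mb). The sarcomere genes stayed below all genes in each list, with 26.2, 61.2 and 74.3 per Mb. Their density by gene length was not compared. Chitin enzymes had 3 of 18 (63.2 per Mb), cuticle proteins 8 of 94 (186 per Mb), and odorant and gustatory receptors 8 of 117 (95.6 per Mb). For cuticle proteins the replicate lists held 116, 209 and 116 per Mb, against 134, 199 and 265 for all genes. Ribosomal protein genes had 5 of 44, with 2 regions in RpS2. Per Mb this was 536 in the pooled list, the highest of the gene lists there, and 358, 447 and 805 in the replicate lists, but the pooled value rests on 6 regions in 0.0112 Mb of eligible sequence.

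Density in coding exons was higher near optimal peaks and near promoters, in the same order in each replicate list. From 1000 to 2000 bp away from an optimal summit there were 64.5 regions per 1000 windows, from 2000 to 5000 bp 45.1, from 5000 to 10000 bp 36.4, and over 50000 bp 18.8. The replicate lists held 48.6, 69.1 and 91.1 in the nearest bin and 16.0, 22.1 and 30.5 in the farthest. By distance to a TSS the density fell from 43.4 per 1000 windows at 500 to 1000 bp to 13.1 beyond 10000 bp. Genes with an optimal peak at a TSS had 214 regions per Mb, genes with a weak region but no optimal peak there 191, and genes with neither 124. The replicates had 1.59, 1.56 and 1.65 times the density in the first group compared with the last (1.60 ± 0.0495, SD, n = 3, in 3 of 3 lists, exact sign-flip permutation p = 0.25). These measures overlap, since short genes have their exons near promoters, and their separate parts were not tested.

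**Figure D5:**
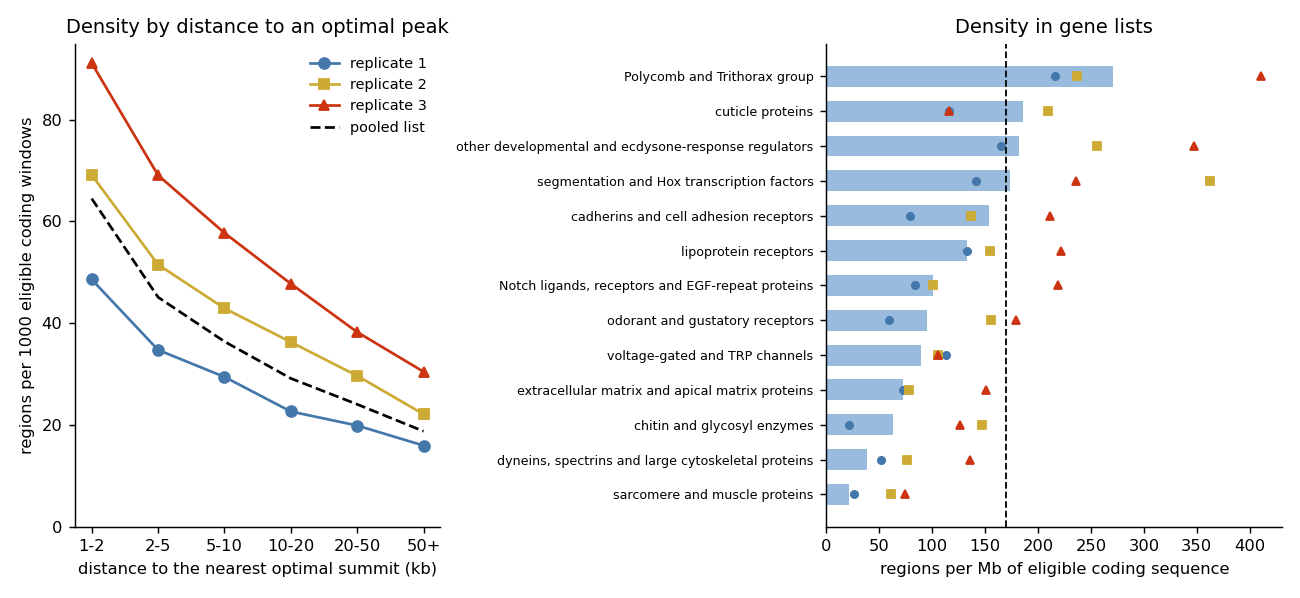
Left, regions per 1000 eligible coding windows (vertical axis) by distance to the nearest optimal summit (horizontal axis, kb), per replicate list and pooled. Right, regions per Mb of eligible coding sequence (horizontal axis) in gene lists with at least 0.04 Mb of it (vertical axis); bars are the pooled list, points the replicates with the colours of the left panel, and the dashed line is 170 per Mb for all genes. Density falls from 64.5 to 18.8 on the left, and lists run from 21.9 to 271 per Mb on the right.

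Counting neighbours of the same class, the coding regions were less crowded than weak promoter, intronic and intergenic regions and more crowded than those in 3' UTRs. Another weak coding region lay within 3000 bp of 1129 of them (37.5%, 35.8 to 39.3), and the median distance to the next was 5482 bp. Of eligible coding windows, 30.9% had a weak coding region that close. The share with a neighbour of the same class was 60.3% for weak intronic, 58.1% for weak promoter, 61.0% for weak intergenic and 26.8% for weak 3' UTR regions. Classes differ in how much sequence lies within 3000 bp, which was not adjusted for. Counting neighbours of any class, a weak region lay within 3000 bp of 77.9% of them, close to the 77.3% of all weak regions. Joining neighbours within 3000 bp gave 500 chains of at least 2, of which 331 (66.2%) lay in 1 gene, and 98 chains of at least 3. There were 4 chains of 5. One ran over Spc105R, a kinetochore protein, CG3634 and HIPP1 on 3L, from 20805754 to 20812532, with signal from 36.4 to 93.3. One ran over CG9588, Lkb1 and omd on 3R, from 13675617 to 13681895. One lay within kis on 2L, from 234023 to 238233, and one over shn and CG9084 on 2R, from 11208785 to 11218154. In kis 3 of the 5 were in all replicate lists, 2 of them sharing the same summits of replicates 2 and 3, and in shn none. The next in order, Ir51b with row on 2R, had 4 regions.

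By chromosome arm, the pooled coding density was 165 per Mb on 2L, 185 on 2R, 186 on 3L and 182 on 3R. It was 121 on X and 273 on chromosome 4, where 60 regions lay in 0.220 Mb. On chromosome 4 the replicate lists held 218, 282 and 232 per Mb. In replicate 3 this was below the large autosome arms, which held 261 to 294. Pooled weak intronic regions were also densest on chromosome 4, with 223 per Mb against 153 to 192 on those arms. No region lay in the 0.0570 Mb of the Y. The X had 0.676 times the density of the 4 large autosome arms in the pooled list. In the replicates it had 0.613, 0.681 and 0.771 times (0.688 ± 0.0792, SD, n = 3, below 1 in 3 of 3 lists, exact sign-flip permutation p = 0.25). In introns the ratio was 0.921, 0.912 and 0.922, in promoters 0.920, 0.911 and 0.940, and in intergenic sequence 0.657, 0.672 and 0.726. Coding windows had a median GC content of 54.7% on the X, 51.7% to 52.2% on the large autosome arms and 39.3% on chromosome 4. The part of GC content in these densities was not tested, and neither was that of the mixed sex of the embryos.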

How the data were processed

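The data are peak lists from chromatin pull-down of Elba2-eGFP in 3 biological replicates. Per the notes deposited with the files, each permissive list came from 1 replicate or the 3 pooled, with a control library, and the optimal set from IDR. The sources used here name no aligner, peak caller or IDR cutoff. The deposited signal value is the authors' own, of unstated scale, and ranks regions within 1 list. The deposited summit offset, a position, gave the summit. The dm3 lists were not used.

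Summits were annotated with Ensembl release 115 (FlyBase 6.54) on Release 6, the assembly of dm6, over 7 arms. Summits up to 500 bp from a TSS were called promoter. Then came, in order, CDS, 5' UTR, 3' UTR, other exon, intron and intergenic. Eligible sequence met the same distance limits (1000 and 500 bp), tiled in 201 bp windows. The same site meant 200 bp, and neighbours 3000 bp. Replicate values were compared by exact sign-flip permutation over 3 lists. Python 3.11.15, numpy 2.4.6, scipy 1.17.1 and pandas 2.3.3 were used, and functions were tested on simulated data.

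The members, 16 gene lists and 10 words were chosen with earlier results of these data known. The pattern for receptor genes was corrected after it matched none. Genes named are the 15 with most regions (ties by the highest signal), those of the 10 strongest regions and of the 5 largest chains, and in each list up to 4 members with most regions and 3 with none. Regions with a word were named once their values were known. The alternatives varied the distances, windows, UTR overlap, signal range and replicates.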

Additional observations from a re-analysis of the deposited data

How the results depend on the processing

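Of 102 alternative values for 10 results, 2 changed sign and 22 moved by more than 1.5 times (counts), 1 SD over replicates (means) or the 95% interval (shares). Tested results were judged by sign and threshold alone, and exact tests over 3 lists or fewer cannot reach the threshold. The difference in GC content between coding regions and windows was 0 in the main setting, so it had no sign to change. Its alternatives ran from -0.599 to 0.498 percentage points and could not be labelled as moved, so their label shows nothing about stability. The other 78 of the 102 values, these among them, did not move by these measures. Some tolerances are wide: the count of regions fell to 2138 and that of genes to 1735 with a TSS limit of 1000 bp. The log2 ratio of coding to intronic density changed sign in the upper 50% of each list by signal (-0.019, exact p = 1) and ran from -0.15 to 0.41 when a replicate was left out, the lowest without replicate 3. The upper 50% of the pooled list gave 982 regions in 900 genes, 46.5% of them in all replicate lists and 18.4% with a neighbour. Over the upper 50% of each replicate list, the mean share with either word was 5.51% ± 1.67, against 3.34% in the whole lists. The share in all lists was 10.3% at 100 bp and 26.7% at 500 bp, and it was 30.3% to 36.5% when both of 2 replicates sufficed. The share with a neighbour was 23.6% within 1500 bp, 48.1% within 5000 bp, 31.4% and 41.7% with TSS limits of 1000 and 250 bp, and 34.0% with 2000 bp to optimal summits. It was 32.6% to 33.9% with regions supported by the other replicates, an alternative chosen after seeing the data. Searched up to 50 and 250 bp on each side of the summit, either word was in 1.80% and 6.51% of regions over replicates. Coding windows searched likewise had 0.465% and 2.40%. The CAG repeat was in 3.25% and 10.5% of regions over replicates. The cause of these moves was not tested, except that wider windows and distances admit more by construction. No paired analysis was possible because the samples form 1 group.

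Regions this weak are called against a control library that was not analysed here, with no depth known, and an exact test over 3 replicates cannot reach p = 0.05. Signal, support and coding share use the same reads, and regions are not independent.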
